A study of Rattus norvegicus with 13 samples.

Results

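Tanycytes and ciliated ependymal cells line the third ventricle, and 10 genes known from them were followed in the rat hypothalamus. They were chosen by symbol and not by a filter on a measured value, though with earlier results of these data known. They are 5 tanycyte genes (Rax, Dio2, Vim, Nes and Crym), 4 genes of ciliated ependymal cells (Foxj1, Ccdc153, Tmem212 and Dnah12) and Rarres2, which both cell types make. A row was found for 9 of the 10 among the 17366 rows of the expression table, and Dnah12, an axonemal dynein heavy chain, was not analysed here. Rats were given either standard chow (0.30% fructose, n = 7) or a high-fructose diet (55% fructose, n = 6) from postnatal day 25. They were fasted overnight on day 79 and decapitated on day 80, 1 h after an injection into the peritoneum of glucose (2 g per kg) or of saline. The labels tie neither injection nor cage mates to a sequenced rat and name no strain or sex. Expression is in FPKM, fragments scaled by transcript length and by library size, from 1 library per rat, so levels of different genes can be set side by side per unit length.

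Tanycytes are elongated cells of the ventricle floor and lower walls that send a process into the arcuate nucleus and median eminence. They take up thyroxine, convert it to active hormone with the deiodinase encoded by Dio2, and carry signals between the cerebrospinal fluid, the blood and hypothalamic neurons. Ciliated ependymal cells cover the upper walls and move the fluid with motile cilia, whose genes are switched on by the transcription factor FOXJ1 together with factors of the RFX family. In a bulk sample of whole hypothalamus, fewer cells of a type and less RNA per cell cannot be told apart.

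No member passed the test for a difference between the diets after adjustment, although 4 had 95% intervals that exclude 0. Of the 9 genes, 8 had a mean of at least 0.5 FPKM and were tested, and 0 of the 8 passed (limma, adjusted p under 0.05 over all rows), against 466 of 11837 rows tested, 3.94%. At an unadjusted p under 0.05 stood 4 of the 8 by limma (Vim, Foxj1, Crym and Rarres2), where 19.2% of all rows stood, and 3 by the exact permutation test, which called 0 after adjustment. The ranges of the diets overlapped in all 8 (they did not in 1.61% of all rows). The fitted difference was above 0 in 7 of the 8 (median log2 fold change 0.25), whereas over all rows 50.3% were above 0 (median 0.00).

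**Figure D1:**
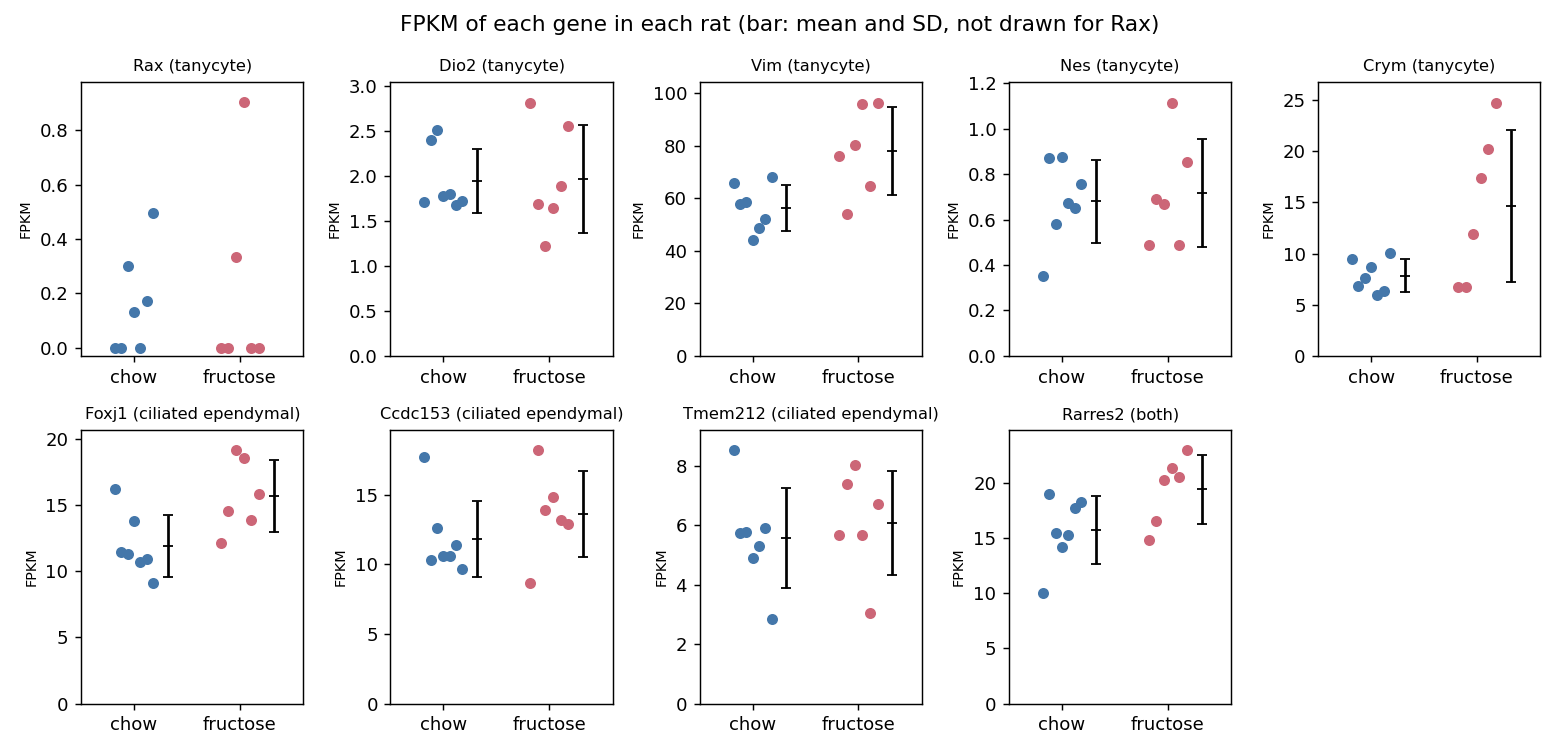
FPKM (vertical axis) of the 9 genes in each of the 7 chow and 6 fructose rats, 1 point per rat, with the mean and SD beside the points except for Rax. Vim, Crym and Rarres2 each have 4 fructose rats above every chow rat, and no gene separates the diets.

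Among the tanycyte genes, Rax encodes the retina and anterior neural fold homeobox factor and is the most restricted to tanycytes in the adult hypothalamus. It was listed at 0 in 7 of 13 rats, 3 on chow and 4 on fructose, and its highest value was 0.903 FPKM, in fructose replicate 4. In the 4 chow rats above 0 it lay at 0.132, 0.170, 0.301 and 0.496 FPKM, and the other fructose rat above 0 had 0.335 FPKM. Rax was therefore not tested, and no fold is given. With this defining gene at or near 0, the tanycyte label rests in these libraries on genes that other cell types also express.

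Dio2, type 2 deiodinase, which is also made by astrocytes, lay at 1.68, 1.78 and 2.51 FPKM (lowest, median and highest) on chow and at 1.22, 1.79 and 2.82 FPKM on fructose. Of the 6 fructose rats 2 lay above all chow rats and 2 below all of them, so that the fructose group enclosed the chow group. The log2 fold change was -0.01 ± 0.15 (SE; limma adjusted p = 0.986), with a 95% interval from -0.33 to 0.32.

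Vim, vimentin, the intermediate filament of tanycytes, vessels, fibroblasts and immature glia, was the most abundant member. It lay at 44.2, 57.9 and 68.1 FPKM (lowest, median and highest) on chow and at 54.2, 78.2 and 96.4 FPKM on fructose. Fructose replicates 1, 3, 4 and 6 were above every chow rat, and replicates 2 and 5 were within the chow range. The means were 56.4 ± 8.72 FPKM (SD, n = 7) and 77.9 ± 16.8 FPKM (SD, n = 6). The log2 fold change was 0.45 ± 0.13 (SE), with a 95% interval from 0.16 to 0.73 (limma adjusted p = 0.0733, exact permutation p = 0.0163, permutation adjusted p = 0.166). It passed with 1 rat left out in 2 of 13 fits, without chow replicate 1 (adjusted p = 0.0468) and without fructose replicate 2 (0.0383). It passed as well when each library was weighted by its estimated quality (array weights, 0.0219). The summed FPKM of the meningeal markers given further on was above every chow rat in the same 4 fructose rats. So was the summed FPKM of the wider tanycyte list, also described further on. That sum ran from 110 to 132 FPKM on chow and from 107 to 145 FPKM on fructose. Single meningeal markers differed, with Aldh1a2 above all chow rats in 2 fructose rats and Igf2 in 5.

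Nes, nestin, the filament protein of neural progenitors, is kept by tanycytes in the adult and also made by growing vessels. It was barely above the level at which rows were tested, at 0.354 to 0.874 FPKM on chow and 0.489 to 1.115 FPKM on fructose. The ranges largely overlapped, and fructose replicate 4 alone exceeded the chow maximum (log2 fold change 0.04 ± 0.15, SE; adjusted p = 0.925 by limma; 95% interval from -0.29 to 0.37).

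Crym, mu-crystallin, binds thyroid hormone in the cytoplasm and is made by tanycytes and by subsets of neurons, among them neurons of the striatum and cortex. On chow it lay at 5.91, 7.59 and 10.05 FPKM (lowest, median and highest). On fructose the rats fell far apart, at 6.74, 6.76, 11.9, 17.4, 20.2 and 24.8 FPKM. Fructose replicates 3 to 6 were above every chow rat, and replicates 1 and 2 were below the chow median. Markers of the striatum, whose neurons also make Crym, pointed both ways, with Ppp1r1b higher (limma adjusted p = 0.0205), Rasd2 lower (0.0478) and the other 6 tested not called. The coefficient of variation was 20.4% on chow and 50.5% on fructose, the latter the highest among the 8 tested members in either diet. The log2 fold change of 0.72 ± 0.27 (SE) was the largest of the 8, with a 95% interval from 0.14 to 1.30 (limma adjusted p = 0.154, exact permutation p = 0.0472, permutation adjusted p = 0.259). With 1 rat left out it lay between 0.54 and 0.90 and was called in none of the 13 fits. It passed with libraries weighted by quality (adjusted p = 0.0450).

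Foxj1, the master transcription factor of motile cilia, led the ciliated genes. It lay at 9.11, 11.3 and 16.2 FPKM on chow and at 12.2, 15.2 and 19.1 FPKM on fructose. All 6 fructose rats exceeded the chow mean of 11.9 FPKM, yet only replicates 3 and 4 exceeded the highest chow rat, replicate 1. The log2 fold change was 0.38 ± 0.13 (SE; 95% interval from 0.11 to 0.65; limma adjusted p = 0.106, exact permutation p = 0.0227, permutation adjusted p = 0.190). It passed without chow replicate 1 (0.46, adjusted p = 0.0267) and with weighted libraries (0.0241), and in none of the other 12 fits with 1 rat left out.

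Ccdc153, a coiled-coil protein used as a marker of ependymal cells, lay at 9.63, 10.6 and 17.7 FPKM on chow and at 8.66, 13.5 and 18.2 FPKM on fructose. Chow replicate 1 stood apart from the other chow rats, which reached at most 12.6 FPKM. Its log2 fold change was 0.19 ± 0.15 (SE; limma adjusted p = 0.554; 95% interval from -0.14 to 0.52). Tmem212, a membrane protein likewise used as an ependymal marker, lay at 2.85, 5.73 and 8.53 FPKM on chow and at 3.06, 6.21 and 8.03 FPKM on fructose. All 6 fructose rats were within the chow range (log2 fold change 0.12 ± 0.21, SE; limma adjusted p = 0.827; 95% interval from -0.34 to 0.57).

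Rarres2 encodes chemerin, a secreted chemoattractant and adipokine. On chow it lay at 10.02, 15.4 and 19.0 FPKM and on fructose at 14.8, 20.4 and 22.9 FPKM. Fructose replicates 3 to 6, the same rats that were high in Crym, were above every chow rat. The log2 fold change was 0.31 ± 0.14 (SE; 95% interval from 0.02 to 0.60; limma adjusted p = 0.234, exact permutation p = 0.0618, permutation adjusted p = 0.295). Of the chemerin receptors, Cmklr1, the signalling receptor, was the only one tested of 3 (1.54 ± 0.288 FPKM, SD, n = 7, and 1.61 ± 0.357 FPKM, SD, n = 6; log2 fold change 0.04 ± 0.13, limma adjusted p = 0.901). Gpr1 and Ccrl2 had means under 0.5 FPKM in both diets.

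**Figure D2:**
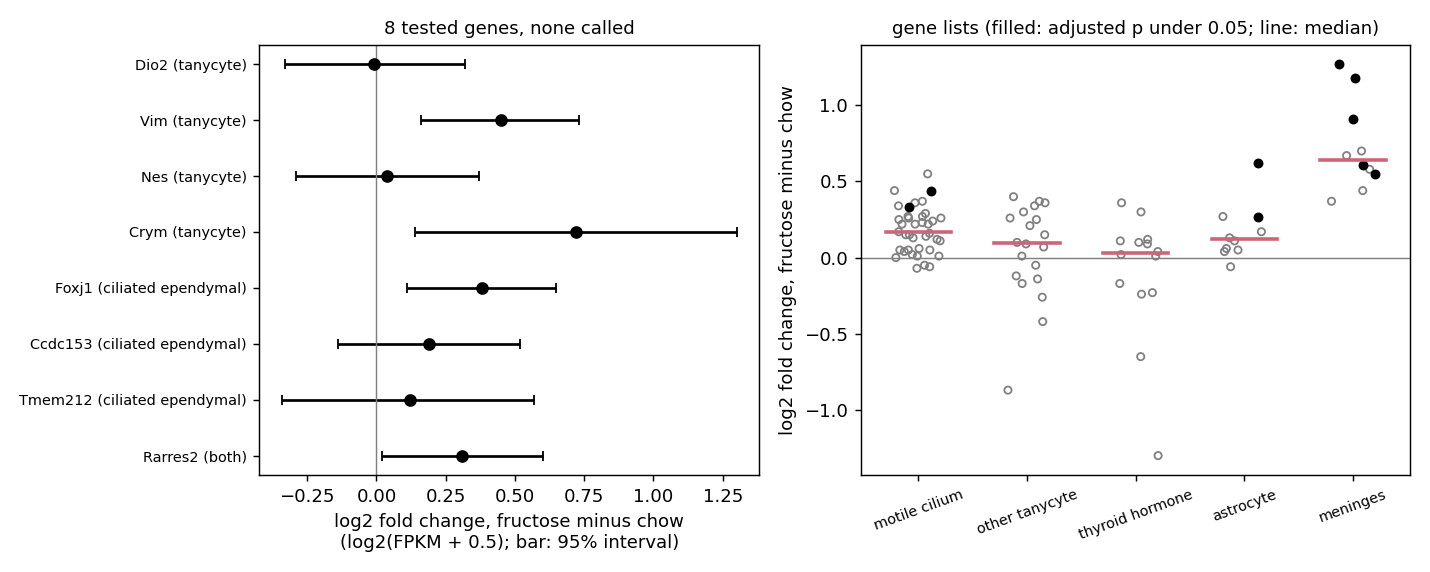
Left, log2 fold change (fructose minus chow, horizontal axis) with its 95% interval for the 8 tested genes. Right, log2 fold changes (vertical axis) of the tested genes of 5 lists, filled where the adjusted p was under 0.05, with the list median as a line; the motile cilium median is 0.17 and the meningeal median 0.64.

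The tanycyte and ciliated genes were then set against each other within each rat. The tanycyte level, the mean of log2(FPKM + 0.5) over Dio2, Vim, Nes and Crym, averaged 2.59 ± 0.12 in the chow rats (SD, n = 7) and 2.89 ± 0.30 in the fructose rats (SD, n = 6). The ciliated level, the same mean over Foxj1, Ccdc153 and Tmem212, was 3.25 ± 0.30 on chow and 3.48 ± 0.26 on fructose. The tanycyte level was 0.30 higher in the fructose mean, with 4 of 6 fructose rats above all chow rats, and the ciliated level 0.23 higher, with 0 of 6.

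The difference of the levels, tanycyte minus ciliated, was -0.67 ± 0.36 on chow and -0.60 ± 0.41 on fructose, 0.07 apart, and no test is given for a score over chosen genes. It was below 0 in all 13 rats. It ran from -1.24 in chow replicate 1 to -0.04 in chow replicate 7, and from -1.20 in fructose replicate 2 to -0.22 in fructose replicate 6. The spread between rats of 1 diet was thus far wider than the distance between the diets. Chow replicate 1 had the highest ciliated level (3.81) and chow replicate 7 the lowest (2.78). Fructose replicates 4 and 6 had the highest tanycyte levels (3.14 and 3.33).

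**Figure D3:**
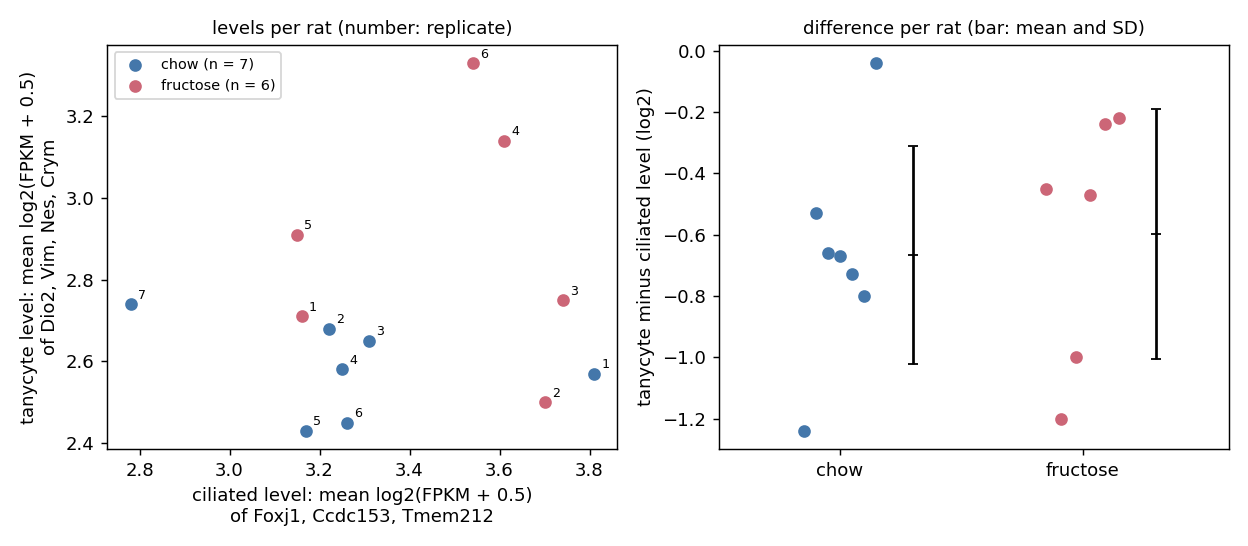
Left, the tanycyte level (vertical axis) against the ciliated level (horizontal axis), both mean log2(FPKM + 0.5), 1 point per rat numbered by replicate. Right, tanycyte minus ciliated level per rat with mean and SD; it spans -1.24 to -0.04 on chow and -1.20 to -0.22 on fructose.

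Between rats, the 3 pairs of ciliated genes had r from 0.53 to 0.68 and the 6 pairs of tanycyte genes r from -0.08 to 0.72, a contrast that was not tested. Of all 28 pairs 0 passed after adjustment (two-sided permutation test, 100000 resamples), and 6 stood at an unadjusted p under 0.05. Foxj1 and Ccdc153 had r = 0.68 over 13 rats (permutation p = 0.0112, adjusted p = 0.157) and rho = 0.76 (permutation p = 0.00401, adjusted p = 0.0994). Without the 2 rats farthest from the Foxj1 median r was 0.66, and within the diets it was 0.78 on chow and 0.53 on fructose. Without chow replicate 1, a fit added after the values were seen, r was 0.65 over 12 rats and 0.32 over the 6 other chow rats, so the relation within chow rests largely on that rat.

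Foxj1 and Tmem212 had r = 0.56 (permutation p = 0.0445, adjusted p = 0.210) and rho = 0.57 (permutation p = 0.0479, adjusted p = 0.188). Without the 2 rats farthest from the Foxj1 median, chow replicate 7 and fructose replicate 3, r was 0.23, so that the relation rested on those rats. Ccdc153 and Tmem212 had r = 0.53 (permutation p = 0.0609, adjusted p = 0.213) and rho = 0.63 (permutation p = 0.0235, adjusted p = 0.184), and r = 0.57 without 2 rats. Within the diets these pairs had r = 0.78 and 0.80 on chow and 0.43 and 0.24 on fructose.

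Of the tanycyte genes, Vim and Crym were the pair with the highest r, 0.72 (permutation p = 0.00588, adjusted p = 0.157) and rho = 0.72 (permutation p = 0.00710, adjusted p = 0.0994). It was 0.43 without fructose replicates 4 and 6, 0.54 within chow and 0.58 within fructose. Dio2 had r between -0.08 and 0.10 with Vim, Nes and Crym. Of the remaining pairs at an unadjusted p under 0.05, Crym and Foxj1 had r = 0.57 (permutation p = 0.0451, adjusted p = 0.210; 0.65 without 2 rats), Crym and Rarres2 likewise 0.57 (permutation p = 0.0425, adjusted p = 0.210; 0.33 without 2) and Nes and Rarres2 0.62 (permutation p = 0.0253, adjusted p = 0.210; 0.18 without 2). The last 2 pairs thus rested largely on the rats left out. For Crym and Rarres2 these were fructose replicates 5 and 6. Without chow replicate 1 instead, that pair had r = 0.80 over 12 rats.

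Rarres2 had r of opposite sign in the diets with 2 of the 3 ciliated genes and with Crym, Vim and Dio2. On chow it had r = -0.86 with Foxj1 and -0.87 with Ccdc153 (n = 7), whereas on fructose it had 0.69 and 0.36 with them (n = 6). With Tmem212 it had -0.64 and -0.10, of 1 sign in both. With Crym it had -0.39 on chow and 0.93 on fructose, so that the pooled 0.57 joins unlike values. With Vim it had -0.09 on chow and 0.58 on fructose, with Dio2 0.30 and -0.28, and with Nes 0.77 and 0.58. Chow replicate 1 was the rat lowest in Rarres2 and highest in Foxj1 and Ccdc153 on chow. Without it the chow values were -0.61 with Foxj1, -0.39 with Ccdc153, -0.22 with Tmem212 and 0.00 with Crym (n = 6). With Vim the chow value was then 0.71, with Dio2 0.09 and with Nes 0.15. For Vim the diets thus had r of 1 sign once that rat was left out. Whether the diets differ in these relations was not tested.

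**Figure D4:**
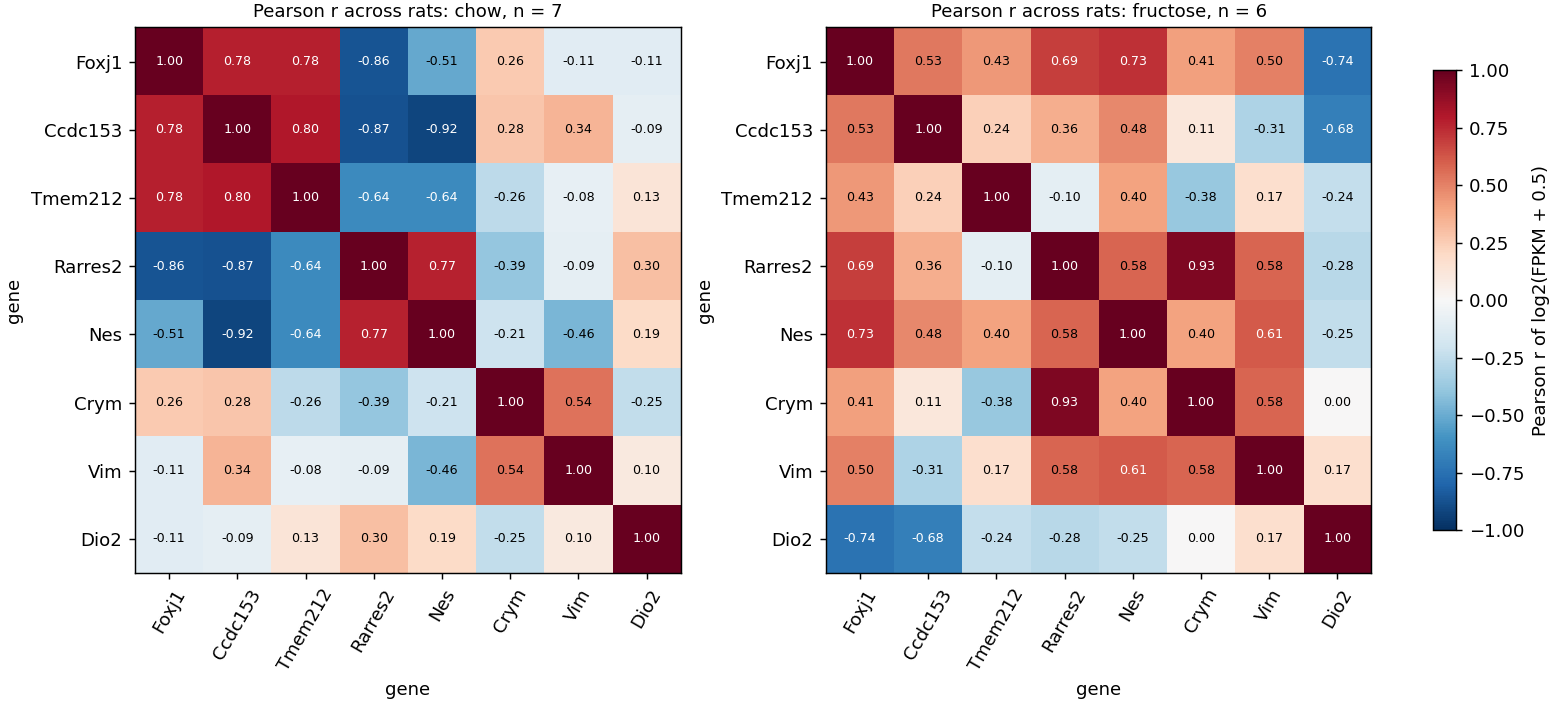
Pearson r of log2(FPKM + 0.5) between 8 genes across the 7 chow rats (left) and the 6 fructose rats (right), coloured from -1 to 1. On chow the 3 ciliated genes have r of 0.78 to 0.80 with each other and negative r with Rarres2, and Rarres2 and Crym have -0.39 on chow and 0.93 on fructose.

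The rows most like Foxj1 after subtraction of the diet means were Rimbp2, Foxp4, Sgsm1, Itm2c and Dnmt1, with r from 0.96 to 0.91 over 13 rats. None of them is on the cilium list. For Rax, at 0 in 7 rats, no such rows are given. For other members the rows were looked up after their values were seen. Those most like Vim were Anxa1, Sfrp1, Hmx3, Mxra8 and Prelp (r from 0.93 to 0.84), and those most like Crym were Kcnv1, Glipr1, Icam5, Fam81a and Rasal1 (0.88 to 0.84). With so few rats and so many rows, high r of this kind is a description alone.

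A wider list of 58 genes of the motile cilium, its assembly and its transcription factors had 41 genes with a row and 38 tested. At an unadjusted p under 0.05 stood 8 of the 38 by limma, where 19.2% of all rows stood. Of the 38, 2 rose, 0 fell and 36 did not pass after adjustment, against 1.66% of all rows that rose. With 1 rat left out the count was 0 in 9 of 13 fits and 6 without chow replicate 1, and it was 0 by the exact permutation test and without a filter on low values. The median log2 fold change was 0.17, with 35 of 38 above 0, and values from -0.07 to 0.55. Dnaaf3, a factor for assembly of dynein arms, rose from 4.57 ± 0.677 to 6.36 ± 0.904 FPKM (SD; log2 fold change 0.44 ± 0.11, SE, limma adjusted p = 0.0394), and 5 of 6 fructose rats were above all chow rats. Tppp3, a tubulin polymerization-promoting protein that oligodendrocytes and other cells also make, rose from 176 ± 11.2 to 223 ± 34.1 FPKM (0.33 ± 0.08, adjusted p = 0.0439), with 4 of 6 above all chow rats.

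Both calls depended on single rats. With 1 rat left out Dnaaf3 was called in 3 of 13 fits, those that omitted chow replicate 1, chow replicate 3 or fructose replicate 1, and its adjusted p reached 0.0969. Tppp3 was called in 3 of 13 (omitting chow replicate 1 or fructose replicates 1 or 5), and its adjusted p reached 0.102. Next to Tppp3 the most abundant cilium genes were Ccdc65, a regulator of dynein (log2 fold change 0.06 ± 0.08, limma adjusted p = 0.753), and Rsph9, a radial spoke protein (0.22 ± 0.15, adjusted p = 0.484). Zmynd10, a dynein assembly factor, had 0.12 ± 0.09 (adjusted p = 0.478). Summed over the list, FPKM was 369 to 433 on chow and 378 to 521 on fructose, and fructose replicates 2, 3, 4 and 6 were above all chow rats. Tppp3 made up much of that sum, and without it the values were 209 to 250 and 199 to 266 FPKM, with the same 4 rats above the chow maximum of 249.9 FPKM, the closest at 252.8 FPKM. After subtraction of the diet means, the median r of the 38 genes was 0.37 with Foxj1, 0.52 with Ccdc153 and 0.31 with Tmem212, against -0.01, -0.02 and 0.00 over 11333 rows. With Vim, Nes and Dio2 it was 0.12, 0.01 and -0.19, and with Crym 0.25.

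Promoters of the cilium genes are shown for the letters that RFX factors are known to bind, the X-box. The half-site GTTGCC was searched on both strands in the 250 bases before the start of each gene, in RefSeq sequence of the rat build GRCr8, matched by symbol, not the build of the expression table. It was found in 14 of 29 cilium promoters that matched (48.3%) and in 2719 of all 27457 promoters (9.90%). The full palindrome, GTTNCC and GGNAAC with 2 bases of any kind between them, which can overlap the half-site, was found in 2 of the 29 (6.90%) and in 97 of all (0.353%). Of the wider tanycyte list 0 of 18 promoters and of the members 1 of 6, that of Rax, held the half-site. Tmem212 was the only ciliated member among these 6, and Foxj1, Ccdc153 and Crym were not searched. A match is a description of letters, not a bound site, and no match says only that these letters are not in this window.

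The promoters below, 250 bases each, 5′ to 3′ on the strand of the gene with half-sites in capitals, are those of Tekt1 (chr10:57479122-57479371, minus strand) and Capsl (chr2:60121912-60122161, plus strand), cilium genes with a half-site, and of the member Tmem212 (chr2:112741869-112742118, minus strand), which has none in this window.
Tekt1: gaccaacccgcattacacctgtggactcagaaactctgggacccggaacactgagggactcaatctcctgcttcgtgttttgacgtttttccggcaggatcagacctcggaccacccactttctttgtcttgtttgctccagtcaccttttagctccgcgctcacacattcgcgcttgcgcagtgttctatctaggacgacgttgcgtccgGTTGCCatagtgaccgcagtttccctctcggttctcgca
Capsl: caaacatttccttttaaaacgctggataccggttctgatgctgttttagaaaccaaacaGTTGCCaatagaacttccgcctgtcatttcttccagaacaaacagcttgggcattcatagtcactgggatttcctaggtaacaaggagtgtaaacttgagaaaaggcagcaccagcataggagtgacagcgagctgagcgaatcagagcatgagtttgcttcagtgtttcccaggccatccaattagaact
Tmem212: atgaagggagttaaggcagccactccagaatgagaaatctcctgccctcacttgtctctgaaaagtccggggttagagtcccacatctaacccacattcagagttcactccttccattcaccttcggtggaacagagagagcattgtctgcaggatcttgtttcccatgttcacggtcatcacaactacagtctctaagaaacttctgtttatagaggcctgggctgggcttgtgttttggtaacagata
For Tekt1, a filament protein of ciliary microtubules, the log2 fold change was 0.27 ± 0.10 (SE; adjusted p = 0.146 by limma), and for Capsl, calcyphosine-like, 0.55 ± 0.18 (adjusted p = 0.0978), the highest of the cilium list. Both were chosen after their values were seen.

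Of a wider list of 23 tanycyte genes 20 were tested, and 0 passed in limma, against 3.94% of all rows. At an unadjusted p under 0.05 stood 3 by limma, where 19.2% of all rows stood. The median log2 fold change was 0.10, with 13 of 20 above 0. The exact permutation test called 0 as well. Among the most abundant were Sox2, a stem cell factor (29.1 ± 3.44 FPKM on chow and 30.5 ± 2.83 on fructose), and Hes5, a Notch target (15.6 ± 3.70 and 18.03 ± 4.39), both SD. The members of the list nearest to the threshold pointed both ways. Frzb, a secreted Wnt antagonist, had 0.34 ± 0.14, Scn7a, a sodium-sensing channel, -0.42 ± 0.17, and Fgf10, a growth factor of the tanycyte lineage, -0.87 ± 0.37 (log2 fold change and SE; limma adjusted p = 0.196, 0.198 and 0.212). These 3 were chosen after their values were seen.

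Dio2 and Crym relate to a list of 17 genes of thyroid hormone conversion, transport, binding and response. Of these 14 were tested and 0 passed in limma, against 3.94% of all rows. At an unadjusted p under 0.05 stood 4 by limma, where 19.2% of all rows stood. The exact permutation test called 0 after adjustment. The median log2 fold change was 0.03, with 9 of 14 above 0. Thra, a thyroid hormone receptor, lay at 212 ± 19.7 FPKM (SD, n = 7) and 226 ± 11.9 FPKM (SD, n = 6), Rxrb, its partner, at 44.8 ± 3.15 and 45.1 ± 2.75, and Trh, thyrotropin-releasing hormone, at 53.9 ± 41.2 and 34.3 ± 24.0. Dio3, the deiodinase that inactivates the hormone, was listed at 0 in 5 of 13 rats.

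Among 9 intermediate filament partners of vimentin and nestin, 1 rose, 0 fell and 8 did not pass (median log2 fold change 0.01). Over all rows 3.94% were called by limma. Gfap, the filament protein of astrocytes that some tanycytes also make, rose from 147 ± 24.1 FPKM (SD, n = 7) to 229 ± 51.6 FPKM (SD, n = 6), with 5 of 6 fructose rats above all chow rats (log2 fold change 0.62 ± 0.14, SE, limma adjusted p = 0.0323). In 5 of 13 fits with 1 rat left out (chow 2, 4 and 5, fructose 4 and 6) the call was lost, and its adjusted p reached 0.0795. The neurofilament genes Nefl, Nefm and Ina, the most abundant of the list besides Gfap, had log2 fold changes of -0.10 ± 0.11, 0.00 ± 0.15 and -0.23 ± 0.08 (adjusted p = 0.695, 0.997 and 0.118).

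Markers of other cells that make these genes were measured beside them, as the summed FPKM of a list in each rat. The 10 astrocyte markers summed to 3624 to 3954 FPKM on chow and 4021 to 4300 FPKM on fructose, so that every fructose rat exceeded the chow maximum. Most of that sum is S100b and Aldoc, neither of which was called (limma adjusted p = 0.121 and 0.554). Of the 10 genes 2 were called, Gfap and Aqp4, both higher. Over all rows 3.94% were called by limma, and 1.66% were called higher. The 12 meningeal markers summed to 26.5 to 44.1 and 38.1 to 93.9 FPKM, with 5 of 10 tested genes called, all higher, and with Col1a2 and Ogn listed at 0 in every rat, each as a symbol split over loci. With 1 rat left out, Igf2 was called in 12 of 13 fits, Fmod in 9, Dcn in 4, Col1a1 in 3 and Lum in 2. The exact permutation test called 0 of all rows after adjustment, these genes and the astrocyte markers included. Fructose replicates 1, 3, 4 and 6 had meningeal sums above all chow rats, and the same rats had sums of the wider tanycyte list above all chow rats. Of the 10 tested meningeal genes 7 had r above 0.5 with Vim after subtraction of the diet means (median 0.61, against 0.00 over 11333 rows), and 0 had with Crym. Of the wider tanycyte list 7 of 20 had r above 0.5 with Vim (median 0.36), and of the astrocyte markers 2 of 10 (median 0.34). Over all rows 6.05% had r above 0.5 with Vim. With Crym 0 of either list had. The 10 endothelial markers (164 to 186 and 175 to 219 FPKM), the 9 of pericytes and smooth muscle (96.7 to 108 and 85.0 to 122 FPKM) and the 12 of the choroid plexus, of which 5 were tested (14.5 to 62.9 and 10.3 to 43.6 FPKM), had 0 calls in limma, with 4, 1 and 1 at an unadjusted p under 0.05 and 0 by the permutation test after adjustment. Otx2, a defining gene of the choroid plexus, is likewise split over loci and listed at 0. Of the 940 rows of split symbols 655 were at 0 in all rats, so these zeros say nothing about the cells. The 10 striatal markers summed to 174 to 223 and 159 to 242 FPKM, with 1 gene higher and 1 lower of 8. That sum is mostly Penk and Ppp1r1b, and Drd1 and Rasd2 each had 5 of 6 fructose rats below all chow rats. The part of these cells in the values of Vim, Crym and the other members was not tested.

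The tissue label was checked on 16 hypothalamic markers, all with a row and all tested, which summed to 4371 to 10210 FPKM on chow and 1804 to 7664 FPKM on fructose. Most of that sum is Pmch, which averaged 5107 and 3494 FPKM, and 0 of the 16 were called by limma (3 at an unadjusted p under 0.05) or by the permutation test. Over all rows 3.94% were called by limma and 19.2% stood at an unadjusted p under 0.05. Genes of neighbouring regions differed between the diets. Of 9 tested midbrain dopamine neuron markers 9 were higher by limma, and of 15 thalamic markers 10 were lower and 1 higher on fructose. The exact permutation test called 0 of all rows after adjustment. Whether these regions bear on the ventricular genes was not tested. Total FPKM ran from 556902 to 608058 per rat and rows above 0 from 13156 to 13384.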

How the data were processed

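RNA of the whole hypothalamus was sequenced in 13 rats. The deposited table holds FPKM values computed by the authors, for which the submitters' processing notes list the build rn5, Cuffdiff, Cufflinks 2.1.1 and STAR 2.3.0e without their roles. Read depth is unknown; low values put the worth of 1 read within 0.879 to 1.12 of the average rat (535 rows), a rough estimate, so precision rests on the spread between rats. Replicates were numbered in accession order and pair nothing. P-values measure the spread between these rats, whose cages are unknown.

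All rows with a mean of at least 0.5 FPKM were fitted on log2(FPKM + 0.5) with limma 3.58.1 in R 4.3.3 (trended empirical Bayes, two-sided, Benjamini-Hochberg over 11837 rows), so fold changes understate those of low genes. The procedure was tested on simulated data. Exact two-sided permutation tests used all 1716 splits. Members and lists were chosen with earlier results of these data known. Named were all members, called genes of a list (at most 6) and the 3 most abundant (1 of these is not reported here), and the 5 rows most like Foxj1; other genes were chosen after their values were seen. Alternatives were other pseudocounts (0.1 and 1), filters (none, 2 FPKM) and scalings, array weights, the permutation test, and leaving out each rat.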

Additional observations from a re-analysis of the deposited data

Results flagged for a closer look

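A rat standing apart from its diet was looked for in 20 groups (9 genes and the tanycyte minus ciliated level, in each diet) by Dixon's test at the 95% level, which flags about 1 in 20 groups by chance, and 2 were found. Ccdc153 stood at 17.7 FPKM in chow replicate 1, where the other chow rats lay between 9.63 and 12.6 FPKM. Rax stood at 0.903 FPKM in fructose replicate 4, where the other fructose rats lay between 0 and 0.335 FPKM. Its gap over range was 0.629 against a critical value of 0.625. With Rax at 0 in 4 of the 6 fructose rats, this flag rests on values at the floor and says little about that rat.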

How the results depend on the processing

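The number of genes called over all rows, 466, was 308 without a filter on low values, 1019 with array weights, 0 by the exact permutation test (2223 at an unadjusted p under 0.05), and 83 to 859 with 1 rat left out. The members called, 0, came to 3 with array weights and 0 to 2 with 1 rat left out. The cilium genes called, 2, came to 0 without a filter, 1 with quantile normalization, 6 with array weights, 0 by the permutation test (10 at an unadjusted p under 0.05) and 0 to 6 with 1 rat left out. The other tanycyte genes called, 0, came to 0 to 1 with 1 rat left out (1 without fructose replicate 5), and the thyroid hormone genes, 0, to 1 with array weights and 0 to 1 with 1 rat left out (Ncor1 in both). The cause was not tested. The log2 fold changes of Vim, Crym, Foxj1, Ccdc153 and Rarres2 were above 0 under each of 21 alternatives; those of Tmem212 (21) and of Nes and Dio2 (20 each) changed sign in some without a call. The tanycyte minus ciliated difference between diets lay between -0.03 and 0.19 under its 19 alternatives, among them the median over the members (0.16) and leaving out Vim and Nes (0.13). The number of rats limits the precision.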
